A study of Mus musculus with 6 samples.

Results

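Schwann cell and myelin genes were read in aorta from young and aged mice. They were chosen by symbol as 8 genes of periaortic nerve (Mbp, Prx, Mag, Pmp22, S100b, Sox10, Cnp and Gfra3), and each matched 1 of the 55335 rows of the gene count table. The mice were wild-type C57BL/6 (c57b6l in the labels), untreated and described as male, aged 6 weeks (young, 3 mice) or 6 months (aged, 3 mice), with 1 RNA library per mouse. By the study's methods, periaortic fat was dissected with the aid of a microscope before the vessels were frozen. Counts per library lay between 31049632 and 45832185.

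Schwann cells are the glia of peripheral nerve. Some wrap large axons in myelin, a stack of membrane held together by proteins such as Mbp, while others, called Remak cells, ensheath thin axons without myelin. The sympathetic fibres of the aortic adventitia are mostly of the thin kind, and Sox10 is the transcription factor that sets the identity of all these cells. Several of the 8 genes are also used outside nerve. Pmp22 is expressed in fibroblasts and other mesenchymal cells, S100b in adipocytes and melanocytes, Sox10 in melanocytes, Cnp in many cell types, and Prx in endothelium.

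Promoter windows from RefSeq (GRCm38.p6, 250 bases before to 50 after a start site) were found for 5 of the 8 genes, namely Prx, Mag, Pmp22, S100b and Cnp. They are shown because Sox10, a member, is a DNA-binding regulator of myelin genes, and because Pmp22 has several start sites that counts per gene do not separate. Letters are capitals where the SOX core ACAAAG or ACAATG was found on either strand.
Prx, chr7:27499074-27499373, plus strand: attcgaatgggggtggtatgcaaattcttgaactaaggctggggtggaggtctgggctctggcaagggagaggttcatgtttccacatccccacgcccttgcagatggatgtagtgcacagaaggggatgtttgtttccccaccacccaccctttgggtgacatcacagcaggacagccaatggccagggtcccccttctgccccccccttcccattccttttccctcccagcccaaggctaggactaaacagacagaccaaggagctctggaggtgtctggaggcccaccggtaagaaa
Mag, chr7:30914814-30915113, minus strand: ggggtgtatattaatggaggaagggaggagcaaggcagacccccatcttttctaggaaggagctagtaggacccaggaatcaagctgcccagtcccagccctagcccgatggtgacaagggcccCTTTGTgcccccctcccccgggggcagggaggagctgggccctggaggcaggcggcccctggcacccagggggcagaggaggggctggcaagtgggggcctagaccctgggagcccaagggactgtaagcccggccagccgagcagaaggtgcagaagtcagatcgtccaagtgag
Pmp22 first start, chr11:63128732-63129031, plus strand: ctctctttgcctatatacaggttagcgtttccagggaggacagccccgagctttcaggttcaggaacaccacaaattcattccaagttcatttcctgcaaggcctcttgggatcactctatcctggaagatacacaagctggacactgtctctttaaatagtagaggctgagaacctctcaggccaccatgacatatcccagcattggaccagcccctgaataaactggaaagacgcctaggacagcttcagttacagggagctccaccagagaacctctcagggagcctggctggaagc
Pmp22 second start, chr11:63131207-63131506, plus strand: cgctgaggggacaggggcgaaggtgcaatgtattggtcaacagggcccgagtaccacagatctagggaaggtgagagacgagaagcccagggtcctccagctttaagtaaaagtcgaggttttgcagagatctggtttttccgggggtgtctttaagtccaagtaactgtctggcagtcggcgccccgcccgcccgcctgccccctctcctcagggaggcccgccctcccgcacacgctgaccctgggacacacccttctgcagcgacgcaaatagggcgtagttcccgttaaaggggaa
S100b, chr10:76253586-76253885, plus strand: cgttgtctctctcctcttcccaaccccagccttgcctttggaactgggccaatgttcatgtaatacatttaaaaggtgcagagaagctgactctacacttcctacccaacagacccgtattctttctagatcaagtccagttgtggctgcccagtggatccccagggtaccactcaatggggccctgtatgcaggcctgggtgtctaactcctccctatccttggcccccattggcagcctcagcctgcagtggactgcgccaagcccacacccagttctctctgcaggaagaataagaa
Cnp, chr11:100574689-100574988, plus strand: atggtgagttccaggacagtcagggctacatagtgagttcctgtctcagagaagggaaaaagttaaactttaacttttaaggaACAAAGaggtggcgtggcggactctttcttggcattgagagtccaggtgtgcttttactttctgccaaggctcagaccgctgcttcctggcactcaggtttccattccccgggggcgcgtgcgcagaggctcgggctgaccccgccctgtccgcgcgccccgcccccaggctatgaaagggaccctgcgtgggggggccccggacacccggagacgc
The table held 4 starts for Pmp22 and 3 for Mag. Only the first Mag window and the first and second Pmp22 windows are printed. Mag and Cnp were the 2 of 5 genes with a match, over 10 windows, and in both it was ACAAAG. In Mag it was on the strand opposite to the gene, so that the printed sequence reads its reverse complement (first base at -126 from the start). The same Mag site was at -67 from another start, and the remaining Mag window held no match. In Cnp the match was on the gene's own strand (at -167). Of all 32851 windows, 18.7% held ACAAAG, 12.6% held ACAATG and 28.6% held either. These shares are per window, whereas the 2 of 5 counts genes, some with several windows. A match is a description of the letters in these windows and not of binding, and the absence of 1 says only that these letters are not in the window.

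Some libraries stood apart. Young replicate 1, described as male, had 14806 counts of Xist, the RNA that silences the second X chromosome in female cells, against 24 or fewer in every other library. It had 53 counts of Ddx3y, a gene of the Y chromosome, against 1488 to 2117 in the others. By these genes young replicate 1 reads as female and every other library as male. The young group thus mixed the sexes and the aged group did not. Aged replicate 2 was far above the others in markers of pigment cells and of brown fat, given below. Genes of the mitochondrial genome took 14.9% to 21.2% of counts in young and 23.1% to 30.4% in aged aorta. Results are therefore also given without young replicate 1 and without aged replicate 2.

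Per gene length, the 8 genes spanned several orders of magnitude. The unit for this is FPKM, the authors' count scaled by gene length and library size. Pmp22, a membrane protein of compact myelin, lies on chromosome 11 of GRCm38 from 63128982 to 63159547 and had a median of 65.4 FPKM over the 6 libraries (23.4 to 69.0). S100b, a calcium-binding protein, followed at 4.8 (1.46 to 7.83), then Cnp, an enzyme of myelin cytoplasm, at 3.63 (1.90 to 4.61), and Prx, a scaffold protein of myelinating Schwann cells, at 1.94 (0.266 to 4.14). Mbp had a median of 0.69 FPKM (0.383 to 1.78), Sox10 of 0.384 (0.206 to 1.79), and Gfra3, the co-receptor of the growth factor artemin, of 0.231 (0.205 to 0.823). Mag, an adhesion protein between myelin and axon, was the lowest at 0.060 (0 to 0.101). Of the 7 neighbouring pairs in this order, 5 had overlapping ranges. Pmp22 was above S100b, and Gfra3 above Mag, in every library.

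**Figure D1:**
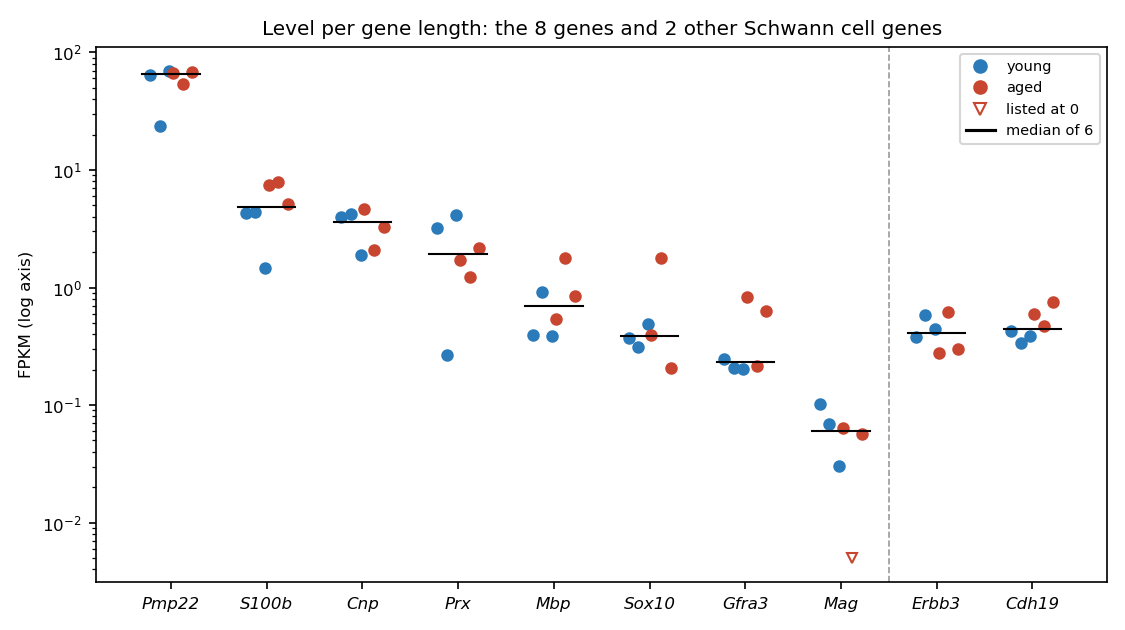
FPKM on a log axis for the 8 genes, ordered by median, and for 2 other Schwann cell genes right of the dashed line (points: libraries, young in blue and aged in red; black line: median of 6). Pmp22 had a median of 65.4 FPKM and Mag, at the other end, 0.060, with 1 library listed at 0.

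The peripheral nerve label was checked against other genes of these cells. Pmp2 had 0 counts in all libraries. Erbb3, the neuregulin receptor of Schwann cells, was at 1.99 to 4.32 CPM (counts scaled to the library's size after TMM normalization, which adjusts for composition), and Egr2, the regulator of myelination, at 1.91 to 3.64 CPM. Both genes were thus detected at low levels in all 6 libraries. In a bulk sample, counts do not tell which cells a message came from. Markers that oligodendrocytes use and Schwann cells lack were at or near 0, with Opalin, Olig2 and Ermn at 0 counts throughout and Mog at no more than 3. Mobp was the exception, with 68 counts in young replicate 2, 13 in young replicate 3 and 0 elsewhere. Enpp6, which other tissues also express, was at 3.95 to 18.8 CPM.

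The question of the design is what differs between aged and young aorta. Aged was compared with young by edgeR's quasi-likelihood test over all 16612 genes that passed a filter on low counts, all 8 members among them. None of the 8 passed at an adjusted p below 0.05 (0 of 8), and neither did any other gene, so the background was 0%. At an unadjusted p below 0.05 there were 2 of 8, S100b and Gfra3, both higher in aged aorta, against 10.4% of all genes tested in either direction, 5.56% higher and 4.82% lower. DESeq2 called 0 of the 7 for which it gave an adjusted p (Mag had none), against a background of 2.01%, with 3 of 8 at an unadjusted p below 0.05 (Mbp, S100b and Gfra3) against 11.9%. Limma on log2 FPKM called 0 of 8, with S100b alone at an unadjusted p below 0.05, against 16.1% of genes with a pseudocount of 1 and 16% with 0.1. Without aged replicate 2 edgeR called 0 of 8 against 0.642% of genes. The log2 fold change of aged over young was positive for 6 of 8 genes, against 52.1% of all genes, with a median of 0.79 where the median of all genes was 0.02. In whole tissue, a change in the number of cells of a type and a change in RNA per cell cannot be told apart.

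**Figure D2:**
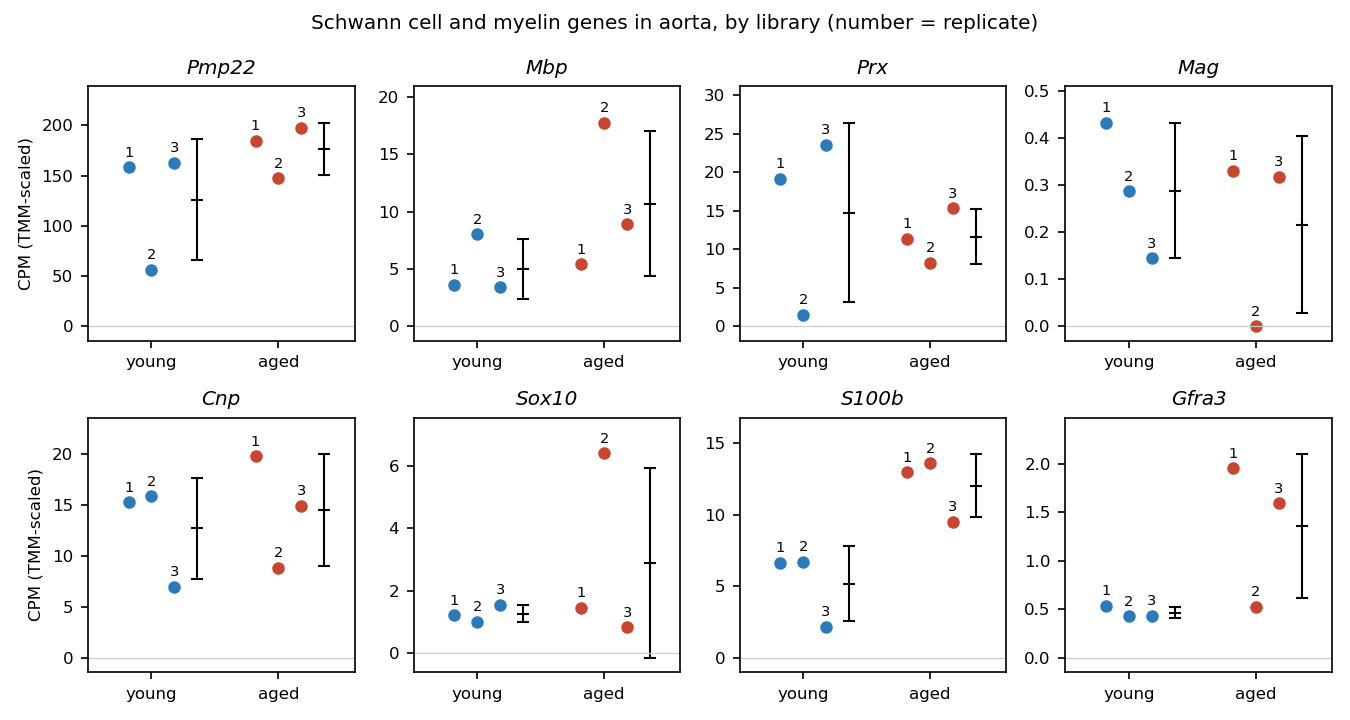
CPM of each of the 8 genes by library (points, numbered by replicate, young in blue and aged in red), with the mean and SD of each group of 3 as black bars; vertical scales differ between panels. The groups are separate for S100b alone, aged replicate 2 is apart in Sox10 and Mbp, and young replicate 2 is apart in Prx and Pmp22.

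S100b was the member whose groups did not overlap. The gene lies on chromosome 10 from 76253853 to 76261159. It was at 6.67, 6.72 and 2.19 CPM in young replicates 1, 2 and 3 and at 13.0, 13.6 and 9.52 CPM in aged replicates 1, 2 and 3. Every aged library was above every young library. That was 1 of 8 members, against 16.5% of all genes whose groups did not overlap, 7.74% higher and 8.78% lower in aged aorta. Young aorta averaged 5.19 ± 2.6 CPM (SD, n = 3), and the aged mean was 12 ± 2.2 CPM (SD, n = 3). This gave a log2 fold change of 1.21 (standard error 0.43, edgeR adjusted p = 0.422). It was 1.44 without young replicate 1 and 1.12 without aged replicate 2. The low young value of 2.19 CPM in replicate 3 was 3.05-fold below the nearest other library, a distance that 1.45% of genes tested reached in that library. Without young replicate 3 the log2 fold change was 0.85.

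S100b is also known from fat, so white adipocyte genes were set beside it. Their summed level was 1010 to 2159 CPM in young and 1041 to 2890 CPM in aged aorta, and 0 of 8 had an unadjusted edgeR p below 0.05, against 10.4% of all genes tested. The highest sums were in aged replicate 2 and young replicate 2. Most of each sum was Plin4 (309 to 901 CPM) and Fabp4 (334 to 1518 CPM), so the sum mainly follows these genes. Others of the list spanned wider ranges, with Adipoq at 13.5 to 94.3 CPM and Plin1 at 7.31 to 129 CPM. Aged replicate 2, highest in S100b at 13.6 CPM, also had 115 CPM of melanocyte genes without Mitf and 1897 CPM of brown fat genes. Aged replicate 1, at 13.0 CPM of S100b, had 1.65 and 178 CPM of them. The part of fat or pigment cells in the S100b level was not tested.

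Gfra3 had few counts in every library. It lies on chromosome 18 from 34689898 to 34720387. Its counts in young replicates 1, 2 and 3 were 26, 15 and 15, or 0.537, 0.431 and 0.437 CPM, and those in aged replicates 1, 2 and 3 were 65, 20 and 45, or 1.96, 0.530 and 1.59 CPM. Aged replicates 1 and 3 were above all other libraries, while aged replicate 2 lay within the young range. On the log2 scale aged exceeded young by 1.52 (standard error 0.59, edgeR adjusted p = 0.448), and by 1.91 without aged replicate 2 and 1.64 without young replicate 1. All of these rest on 65 counts or fewer per library.

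Aged replicates 1 and 3, the highest in Gfra3, were also the highest in fibroblast and in macrophage genes. Pdgfra, Lum, Dcn, Dpt and Pi16 summed to 4599, 929 and 3548 CPM in aged replicates 1, 2 and 3 and to between 951 and 1297 CPM in young aorta. All 5 had positive log2 fold changes and 4 had an unadjusted edgeR p below 0.05, against 5.56% of all genes tested that were higher at that threshold. The list was chosen with earlier results of these data known, so this count is a description and not a test. In aged replicate 2, Lum and Pi16 were below every young library, Pdgfra and Dpt above, and Dcn within the young range. The 5 macrophage genes summed to 152, 57.0 and 118 CPM in aged replicates 1, 2 and 3 and to 38.7 to 47.3 CPM in young aorta. Among the young libraries, replicate 1 was highest in Gfra3 and lowest in the fibroblast sum. The part of either cell type in the difference of Gfra3 was not tested.

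Sox10 was apart in a single library. It lies on chromosome 15 from 79154908 to 79165240. It was at 1.22, 1.01 and 1.54 CPM in young replicates 1, 2 and 3 and at 1.44, 6.41 and 0.814 CPM in aged replicates 1, 2 and 3. The 5 libraries other than aged replicate 2 lay between 0.814 and 1.54 CPM, and that library was 4.15-fold above the nearest of them, a distance that 0.271% of genes tested reached there. The log2 fold change of 1.21 (standard error 0.75, edgeR adjusted p = 0.601) became -0.15 without aged replicate 2 (edgeR adjusted p = 0.922), and was 1.20 without young replicate 1.

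Genes of melanocytes, the pigment cells that share Sox10 with Schwann cells, were highest in the same library. Dct, an enzyme of pigment synthesis, was at 5.08, 0.172 and 0.058 CPM in young replicates 1, 2 and 3 and at 0.030, 50.4 and 1.03 CPM in aged replicates 1, 2 and 3. Tyrp1 was at 36.4 CPM in aged replicate 2 and at 0 to 6.40 elsewhere, and Pmel at 17.2 CPM against 0.262 to 2.64. The list without Mitf, which other cells of the wall express, had 7 genes, and their summed level was 115 CPM in aged replicate 2, 15.3 in young replicate 1 and 0.903 to 5.59 in the other 4 libraries, with Oca2 at 0 counts throughout. Young replicate 1, the next highest in these genes, had 1.22 CPM of Sox10, between the 1.01 and 1.54 CPM of the other young libraries. The part of pigment cells in the Sox10 level was not tested.

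**Figure D3:**
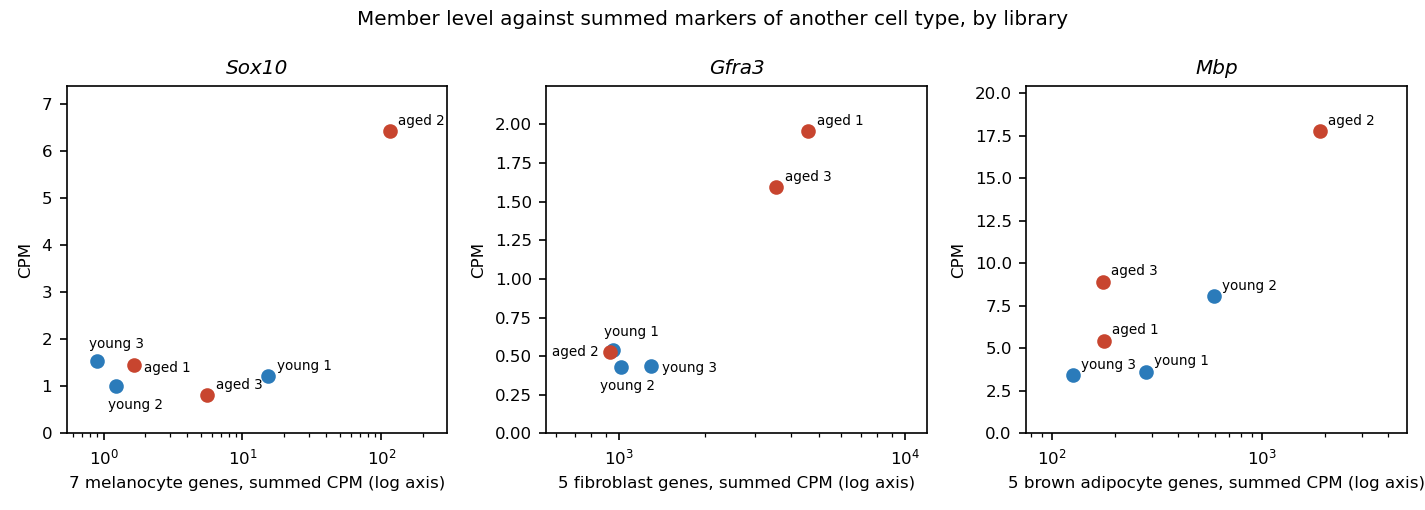
CPM of Sox10, Gfra3 and Mbp in each library against the summed CPM of melanocyte, fibroblast and brown adipocyte genes (log horizontal axes; blue young, red aged). Aged replicate 2 is at 6.41 CPM of Sox10 with 115 CPM of melanocyte genes, and aged replicates 1 and 3 are high in both Gfra3 and fibroblast genes.

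The structural myelin genes differed from each other in size and sign. Mbp, the cytoplasmic glue of the myelin sheath, lies on chromosome 18 from 82475146 to 82585637, and its locus also makes a longer product used in immune cells that counts per gene do not separate. It was at 3.63, 8.05 and 3.41 CPM in young replicates 1, 2 and 3 and at 5.45, 17.8 and 8.92 CPM in aged replicates 1, 2 and 3. Aged replicate 2 was highest, and the aged value of 5.45 CPM lay below the young value of 8.05. Its log2 fold change was 1.09 (standard error 0.52, edgeR adjusted p = 0.517), 0.52 without aged replicate 2, 0.91 without young replicate 1 and 1.62 without young replicate 2.

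Aged replicate 2, the highest in Mbp, was also the highest in the sum of brown fat genes, as it was in melanocyte genes. Ucp1, Cidea, Elovl3, Dio2 and Cox7a1 summed to 1897 CPM in aged replicate 2, 593 in young replicate 2, 282 in young replicate 1 and 126 to 178 in the other 3 libraries. Aged replicate 3, second in Mbp, had 176 CPM of these genes. In aged replicate 2 most of the sum was Ucp1, the uncoupling protein of brown fat, whereas Dio2 was lowest there, at 42.3 CPM against 48.0 to 109 elsewhere. The part of brown fat or melanocyte genes in the Mbp level was not tested.

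Pmp22 was at 159, 56.4 and 163 CPM in young replicates 1, 2 and 3 and at 185, 147 and 197 CPM in aged replicates 1, 2 and 3. Young replicate 2 was 2.61-fold below the nearest other library, a distance that 1.57% of genes tested reached there. For Pmp22 the log2 fold change was 0.49 (standard error 0.38, edgeR adjusted p = 0.670), 0.14 without young replicate 2, 0.70 without young replicate 1 and 0.60 without aged replicate 2.

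Prx showed the same library at a greater distance. It lies on chromosome 7 from 27499324 to 27520214 and was at 19.2, 1.55 and 23.6 CPM in young replicates 1, 2 and 3 and at 11.4, 8.24 and 15.3 CPM in aged replicates 1, 2 and 3. Young replicate 2, with 54 counts, was 5.31-fold below the nearest other library, which 1.04% of genes tested were. The other young libraries were above all aged ones. The log2 fold change of -0.34 (standard error 0.79, edgeR adjusted p = 0.894) was -0.87 without young replicate 2 (edgeR adjusted p = 0.657, with the unadjusted p below 0.05, as for 7.38% of genes in that fit), -0.10 without young replicate 1 and -0.15 without aged replicate 2. The sign turned without young replicate 3, to 0.18. Exons of Prx overlap the antisense gene Gm15541 over 300 bases, and the strand setting of the counting is not given in the sources used here. Gm15541 itself had 6 to 63 counts.

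Mag, on chromosome 7 from 30899176 to 30914873, was counted 21, 10 and 5 times in the young libraries, in replicate order, and 11, 0 and 9 times in the aged ones. All of these were at or below 0.433 CPM. The 0 in aged replicate 2, where Sox10 was highest, allows a level of up to 0.0795 CPM. No difference between the groups was detectable at this depth (log2 fold change -0.45, standard error 1.10, edgeR adjusted p = 0.902). The gene was filtered out without young replicate 1, and its log2 fold change was 0.16 without aged replicate 2.

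Cnp, on chromosome 11 from 100574904 to 100591729, was at 15.2, 15.9 and 6.96 CPM in young replicates 1, 2 and 3 and at 19.7, 8.85 and 14.9 CPM in aged replicates 1, 2 and 3. The groups overlapped over most of their range. Aged over young was 0.19 on the log2 scale (standard error 0.40, edgeR adjusted p = 0.882). It was 0.35 without young replicate 1 and 0.45 without aged replicate 2, and was -0.10 without young replicate 3 or without aged replicate 1. Its exons overlap those of Dnajc7 over 154 bases, and Dnajc7 had 2161 to 3815 counts.

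**Figure D4:**
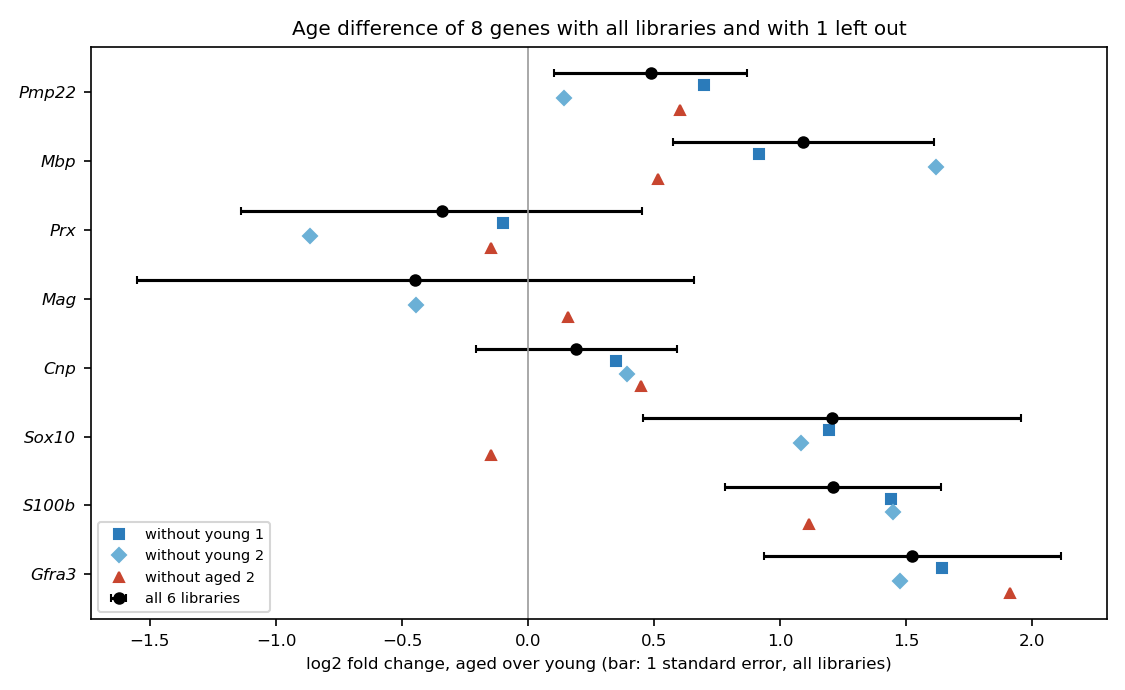
Log2 fold change of aged over young aorta for the 8 genes with all libraries (black, bar of 1 standard error) and with young replicate 1, young replicate 2 or aged replicate 2 left out. S100b stayed between 1.12 and 1.45 in these fits, and Sox10 went from 1.21 to -0.15 without aged replicate 2. Mag has no value without young replicate 1. The fit without young replicate 3 is not drawn. There S100b was 0.85, and Prx and Cnp changed sign.

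The library with the extreme value thus differed from member to member. Aged replicate 2 had the highest level of 3 members (Mbp, S100b and Sox10) and the lowest of 1 (Mag). Young replicate 2 had the lowest level of 3 members (Prx, Pmp22 and Gfra3) and young replicate 3 of 3 others (Mbp, S100b and Cnp). Some of these extremes were near ties with the nearest library. Gfra3 in young replicate 2 was 1.01-fold below it, Mbp in young replicate 3 1.07-fold below and S100b in aged replicate 2 1.05-fold above. Distances were larger for Prx and Pmp22 in young replicate 2 (5.31-fold and 2.61-fold) and for Sox10 in aged replicate 2 (4.15-fold). The genes nearest to Sox10 over the 6 libraries, by the root mean square difference of centred log2 CPM, were Dnaic2 (0.32), Acot11 (0.32), Pgd (0.38), Gm20696 (0.38) and Nabp1 (0.40), where the profile of Sox10 itself had a root mean square of 0.95. Acot11, a thioesterase induced in brown fat by cold, was at 305 CPM in aged replicate 2 and at 63.2 to 94.0 elsewhere. Nearest to the mean profile of the 8 genes were Tnfsf12 (0.054), Phf11d, Elp6, Zfp937 and Sh3bgrl3 (0.078).

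Other peripheral myelin genes were uneven too. Of 15, 9 were tested, with 6 positive and 3 negative log2 fold changes, a median of 0.04 and 0 calls at an adjusted edgeR p below 0.05. At an unadjusted edgeR p below 0.05 there was 1 of the 9, against 10.4% of all genes tested. It was Mal, a lipid raft protein of myelin, at 4.31, 2.41 and 3.15 CPM in young and 4.99, 4.48 and 22.0 CPM in aged replicates 1, 2 and 3. Gjc3, a connexin of myelinating glia, was at 2.39 CPM in aged replicate 2, which was also highest in Sox10, and at 0.0575 to 0.524 elsewhere. Gldn was the most abundant of the list, at 25.8 to 32.4 CPM, and differed by 0.04 (standard error 0.15) on the log2 scale. Fa2h, an enzyme of myelin lipids, had 3 counts in young replicate 1 and 0 elsewhere.

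Schwann lineage regulators and surface genes gave no call either. Among 9 regulators, 5 were tested, with a median log2 fold change of 0.15 and 1 at an unadjusted edgeR p below 0.05, against 10.4% of all genes tested. It was Tfap2a, a factor of the neural crest and of epithelium, with a log2 fold change of 1.53. Nab1 and Nab2, partners of Egr2 that many cells express, had log2 fold changes of 0.24 and -0.28. Among 14 surface and Remak genes, all 14 were tested, 9 had positive log2 fold changes and the median was 0.29. Of these, 2 had an unadjusted edgeR p below 0.05, Cdh19 and Lgi4, both higher in aged aorta, against 5.56% of all genes tested. Cdh19, a cadherin of Schwann cell precursors, was at 1.92, 1.49 and 1.69 CPM in young and 2.98, 2.36 and 4.0 CPM in aged replicates 1, 2 and 3, without overlap (log2 fold change 0.87, edgeR adjusted p = 0.449). Lgi4, the secreted partner in radial sorting of axons, was at 4.13, 8.16 and 4.02 CPM in young and 20.4, 4.61 and 18.1 CPM in aged replicates 1, 2 and 3, high in the libraries that were high in Gfra3. Scn7a, a sodium channel of Remak cells, had the same libraries on top, at 40.0 and 45.9 CPM in aged replicates 1 and 3 and 10.3 to 21.6 CPM elsewhere. Erbb3 differed by -0.01 (standard error 0.39) on the log2 scale. Ncam1, an adhesion molecule of Remak cells that is expressed in muscle too, was at 359 to 389 CPM in young and 189 to 341 CPM in aged aorta, without overlap (log2 fold change -0.53, edgeR adjusted p = 0.484). Of all genes tested, 7.74% were higher and 8.78% lower in aged aorta without overlap.

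**Figure D5:**
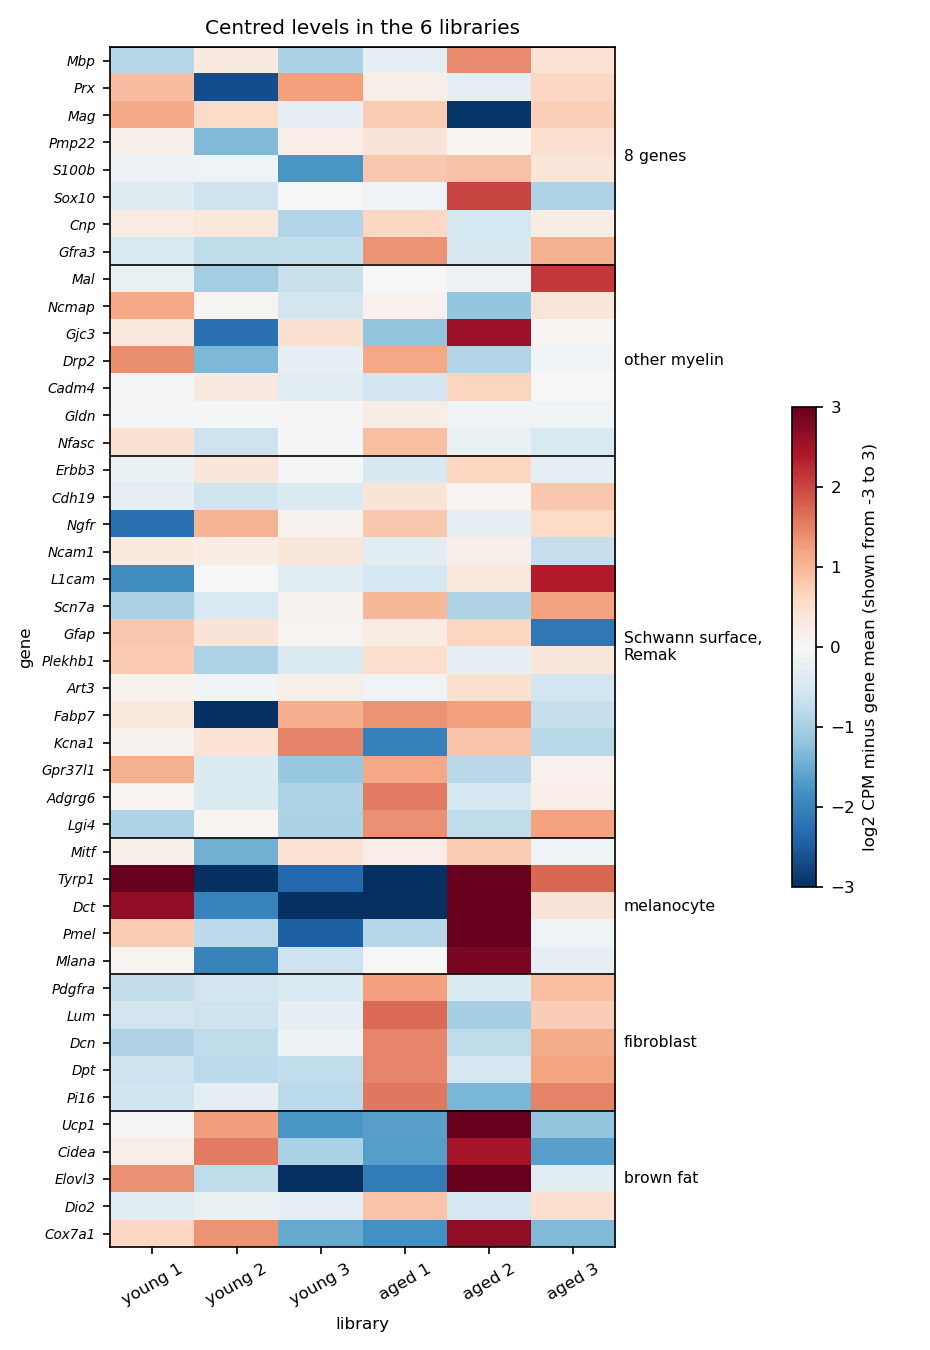
Log2 CPM minus the gene's mean over 6 libraries (colour, limited to -3 to 3) for tested genes of 6 lists (rows) in each library (columns). Among the 8 genes, Sox10 and Mbp peak in aged replicate 2 and Gfra3 in aged replicate 1, melanocyte genes peak in aged replicate 2, and fibroblast genes are high in aged replicates 1 and 3.

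Gfra3 belongs to the receptors of the GDNF family, whose signal passes through Ret. Of 15 genes of GDNF, neuregulin and neurotrophin signalling, 11 were tested, with 5 positive and 6 negative log2 fold changes, a median of -0.08, 0 calls at an adjusted edgeR p below 0.05 and 3 at an unadjusted one, all higher in aged aorta, with Ret and Gfra2 among them. Of all genes tested, 5.56% were higher at that unadjusted threshold. Artn, the ligand of Gfra3, was at 2.19 to 4.2 CPM with a log2 fold change of -0.11. Ret was at 0.557, 0.661 and 1.05 CPM in young and 2.20, 2.04 and 18.0 CPM in aged replicates 1, 2 and 3 (log2 fold change 3.29, standard error 0.93, edgeR adjusted p = 0.379). Its highest value was in aged replicate 3, where endothelial genes summed to 1563 CPM against 317 to 461 in the other libraries. Gfra2 was at 24.9, 3.84 and 14.1 CPM in aged replicates 1, 2 and 3, the same order as for Gfra3, and at 4.31 to 5.22 CPM in young aorta. Ntrk3, a neurotrophin receptor, was the most abundant of the list at 148 to 314 CPM, with a log2 fold change of -0.52 (edgeR adjusted p = 0.533). Nrg1 had at most 3 counts in a library.

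Genes of sympathetic neurons and chromaffin cells ranged from 0 counts to well detected. Dbh had 0 counts in all libraries, Th had 6 counts in young replicate 1 and 0 elsewhere, and Phox2a had at most 3. Hand2, which vessel wall cells also express, was at 7.58 to 22.0 CPM and Slc18a2, the vesicular monoamine transporter, at 1.24 to 2.86 CPM. Of the 19 genes in this list, 9 were tested, with 8 positive and 1 negative log2 fold changes, a median of 0.68 and 2 at an unadjusted edgeR p below 0.05, Tubb3 and Slc6a2, both higher in aged aorta, as were 5.56% of all genes tested. Tubb3, a neuronal tubulin, was at 0.681, 0.144 and 0.262 CPM in young and 2.32, 4.08 and 1.66 CPM in aged replicates 1, 2 and 3 (edgeR adjusted p = 0.373). Slc6a2, the noradrenaline transporter, was at 0.291 to 0.604 CPM in young aorta (edgeR adjusted p = 0.406). In aged replicates 1, 2 and 3 it was at 4.39, 0.663 and 1.38 CPM, from 146, 25 and 39 counts. Aged replicate 2 was thus close to the highest young library. Of 10 nerve sheath genes, 9 were tested, with a median log2 fold change of 0.61 and 1, Osr2, higher at an unadjusted edgeR p below 0.05, against the same 5.56%.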

How the data were processed

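RNA of mouse aorta was sequenced as single-ended reads. The authors deposited whole-number counts of reads per gene, without normalization, and FPKM, scaled by them for gene length and library reads. The submitters' processing notes name build mm10. The aligner, the counting tool and the annotation are not given in the sources used here. Loci come from GENCODE M21 (GRCm38), where 55154 of 55335 identifiers matched, and promoter windows from RefSeq.

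Counts were filtered with edgeR 4.0.16 in R 4.3.3 (filterByExpr, minimum count 10, minimum total 15), scaled by TMM and fitted by quasi-likelihood without covariates, with Benjamini-Hochberg adjustment over all 16612 genes tested and a threshold of 0.05. Every pair of libraries differed beyond sampling noise, so each mouse counts as 1 replicate. A count of 0 was read as up to 3 counts, which covers counting error only. Centred values used log2 CPM with a prior count of 1.

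The 8 genes and the lists of nerve, pigment, fat and vessel wall genes were chosen with earlier results of these data known. Counts within a list, set beside the share of all genes, are therefore descriptions and not tests. The rule for named genes was the 8 members, the 3 genes of highest mean CPM and the 3 of smallest p in each list, the 5 nearest in profile to Sox10 and to the mean of the members, and Xist and Ddx3y. Genes outside it (Pmp2, Fa2h, Erbb3, Egr2, Artn, Nrg1, Opalin, Olig2, Ermn, Mog, Oca2, Dbh, Th, Phox2a, Slc18a2, and the genes nearest to other members) were named after their values were seen, as were list members spelled out beside a sum. Gm15541 and Dnajc7, also outside it, were named because their exons overlap those of members. Some genes of the lists entered their counts and medians and are not reported here. Nothing in the labels says whether replicates came from separate cohorts, so p-values measure the spread between these mice. Alternatives were RLE size factors, other filters, removal of mitochondrial genes, the replicate number as a block, a robust fit, DESeq2 (version 1.42.0), log2 FPKM in limma (version 3.58.1; pseudocounts 1 and 0.1), and each library left out. Leaving out young replicate 1 and aged replicate 2 together was added after the data were seen.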

Additional observations from a re-analysis of the deposited data

How the results depend on the processing

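None of the 8 genes had an adjusted p below 0.05 under any of the 16 alternatives in which it was given one. Mag was not tested without young replicate 1, without that library and aged replicate 2, or with at least 10 counts in every library, and DESeq2 gave it no adjusted p. Over all genes, edgeR called 0 and DESeq2 called 334, and with 1 library left out edgeR called between 0 and 110, the latter without aged replicate 2. Of 125 log2 fold changes of single members under an alternative, 114 kept their sign and 11 changed it. Sox10 became -0.15 without aged replicate 2 and -0.17 without both that library and young replicate 1, and lay between -0.15 and 1.65 with 1 library left out. Prx became 0.22 with the replicate block, 0.032 with limma and a pseudocount of 0.1, 0.18 without young replicate 3 and 0.095 without both libraries, and lay between -0.87 and 0.18 with 1 library left out. Cnp became -0.011 and -0.010 with limma at a pseudocount of 1 and 0.1, and lay between -0.098 and 0.45 with 1 library left out. Mag became 0.16 without aged replicate 2 and lay between -0.91 and 0.16. The median log2 fold change of the members, 0.79, became 1.10 with at least 10 counts in every library, which removed Mag, 0.30 and 0.42 with limma at a pseudocount of 1 and 0.1, and lay between 0.48 (without aged replicate 2) and 0.91 with 1 library left out. Limma moved the median of all genes to -0.12 and -0.19. The cause was not tested for these, except for the removal of Mag. S100b, Gfra3, Mbp and Pmp22 kept a positive sign throughout.

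Adding the replicate block to the edgeR fit left 0 genes called and 0 of the 8, and the median of the members was 0.64. Mbp and S100b then had an unadjusted edgeR p below 0.05 (2 of 8, against 10.7% of genes). Deviations of same-numbered libraries correlated at 0.075, 0.112 and 0.088 over genes, so the labels' numbers were not taken to pair the mice. Each library correlated best with its own number. Deviations from a mean of 3 libraries depend on each other, so this order cannot decide whether the mice were paired. Depth limits Mag and Gfra3 most, at 21 and 65 counts or fewer per library.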

Other observations

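The genes nearest in profile to the other members were looked up after their values had been seen, by the same root mean square difference of centred log2 CPM over 6 libraries, and are given as values. Nearest to Gfra3 were Entpd2 (0.063), Syngr2 (0.091), Dpt (0.096), Vit (0.116) and Chd3os (0.118), and Dpt, a matrix protein of fibroblasts, was at 605, 154 and 498 CPM in aged replicates 1, 2 and 3 and at 126 to 143 CPM in young aorta. Nearest to Mbp was Rasd1 (0.120), a small G protein induced by glucocorticoids, at 25.5 CPM in aged replicate 2 and 5.33 to 13.2 CPM elsewhere. Nearest to S100b was Gm28551 (0.092). Nearest to Prx was Yy2 (0.35), at 0.287 CPM in young replicate 2 and 2.01 to 3.89 CPM elsewhere. Nearest to Pmp22 was Peak1 (0.11), at 19.0 CPM in that library and 40.2 to 53.3 CPM elsewhere.

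The cell types of the vessel wall were read as a check of the tissue. Smooth muscle genes summed to 30975 to 39240 CPM in young and 27236 to 32644 CPM in aged aorta, and 2 of 5, Smtn and Myh11, had an unadjusted edgeR p below 0.05, lower in aged aorta. All 5 macrophage genes were higher at an unadjusted edgeR p below 0.05, with sums of 38.7 to 47.3 CPM in young and 57.0 to 152 CPM in aged aorta. Endothelial genes had 0 of 5 and cardiac muscle genes 2 of 4 tested below that threshold, the latter lower in aged aorta and highest in young replicate 1, at a sum of 275 CPM against 41.0 to 56.9 in the others. Of all genes tested, 5.56% were higher and 4.82% lower in aged aorta at that threshold. By edgeR, 0 genes of these cell types were called after adjustment. These lists too were chosen with earlier results of these data known, so their counts describe and do not test.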
